A study of Rattus norvegicus with 6 samples.

Results

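The genes described here are 7 cathepsins (Ctsb, Ctsd, Ctsl, Ctss, Ctsz, Ctsh and Ctsk) and 3 cystatins (Cst3, Cst7 and Cstb), chosen by name. They are 10 of the 28615 gene names shared by the time-course tables and 10 of the 25199 genes of the injected tables, with 1 row each in every library. Spinal cord cells of SD rats aged 6 to 8 weeks, as the labels give them, were profiled in 6 droplet libraries with UMI counts (counted molecules). The time course sets intact cord beside cord crushed at T10 (thoracic level 10) and taken 1, 3 or 7 days later. The injected set holds cords crushed in the same way, injected at 3 days with MPSS (usually methylprednisolone sodium succinate, a glucocorticoid) or with PBS, its solvent, and collected 2 weeks after injury. Each group is 1 library. Per the labels 5 animals stood behind each condition, and how they were combined is not stated. The treatment label of the intact library also reads as crush, so its group was taken from its title. The labels say rat throughout, but the time-course tables use mouse-style gene names, so the species of those cells cannot be told from the sources used here.

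Cathepsins are proteases that break down proteins in lysosomes. Cathepsins B, L, S, Z, H and K cut with a cysteine in their active site, and cathepsin D cuts with aspartates. They are made as inactive precursors, carried to the lysosome largely by mannose-6-phosphate receptors, and activated there in acid. Cystatins block cysteine cathepsins and leave cathepsin D untouched: cystatin C (Cst3) is secreted, cystatin F (Cst7) is a leukocyte protein that reaches lysosomes, and cystatin B (Cstb, also stefin B) stays in the cytosol. In the central nervous system microglia are rich in Ctsd, Ctss and Cst3, and Cst7 is a known marker of microglia around damage in mice.

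The intact, day 1, day 3 and day 7 libraries held 2757 to 9263 cells, all kept, with median depths of 3090 to 6648 UMIs per cell, and 1377 PBS and 2091 MPSS cells were kept, with medians of 10292 and 10417. Any pair of libraries shared 4 to 91 cell barcodes, at most 1.67% of the smaller library. Cells were gated one by one on markers that include no cathepsin or cystatin. Phagocytes numbered 853 in intact cord and 3631, 6430 and 4957 at days 1, 3 and 7, with 792, 996, 2671 and 3221 of them divided off as microglia and 46, 1775, 2890 and 486 as macrophages. Intact macrophages, under 50 cells, were left out. The PBS and MPSS libraries gave 106 and 167 microglia, 161 and 216 macrophages and, more than both together, 387 and 567 undivided phagocytes. The injected microglia class is weakly marked: its cells held medians of 4 and 3 of 8 microglial markers, Leiden clusters gave 0 microglia in either library, and gates after thinning gave 5 and 2. The labelled tissue was represented unevenly: at most 7 cells of any library were gated as neurons and at most 5 as astrocytes, and oligodendrocytes were gated almost only in the injected set. Levels are UMIs per 1000000 UMIs of all cells of a class in a library (CPM). Their 95% Poisson intervals, which cover counting error only, lie within 3.65% of the level in the time course, and within 4.85% in the injected set, for members at 1000 CPM or more in microglia and macrophages. With 1 library per group, no difference between times or treatments has a replicate check, so none is tested.

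The upstream regions of 4 members show what sequence the members do and do not share. RefSeq (GRCr8 rat assembly) holds windows from 250 bases before to 50 after the gene start for 9 of the 10 members, all but Ctsb. They are printed in lower case 5′ to 3′ on the gene's strand, with 2 motifs in capitals: CACGTG, the core letters that Tfeb and its relatives bind in lysosomal genes of mammals, and GAGGAAGT, the letters favoured by the myeloid factor PU.1 (ACTTCCTC on the other strand). Ctsd, at chr1:206968772-206969071 on the minus strand, holds CACGTG at positions -157 and -10 from the start. Cstb, at chr20:10247150-10247449 on the minus strand, holds it at -22. Ctss, at chr2:185775146-185775445 on the plus strand, holds GAGGAAGT on the other strand at -17. Cst3, at chr3:156793888-156794187 on the minus strand, holds neither and is shown as a member without a match.
Ctsd: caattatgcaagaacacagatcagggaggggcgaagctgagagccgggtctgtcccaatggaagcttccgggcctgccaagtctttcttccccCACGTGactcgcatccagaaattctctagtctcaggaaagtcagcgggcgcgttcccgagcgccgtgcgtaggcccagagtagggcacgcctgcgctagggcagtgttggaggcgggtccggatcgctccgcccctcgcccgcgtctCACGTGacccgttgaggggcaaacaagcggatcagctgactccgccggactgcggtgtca
Cstb: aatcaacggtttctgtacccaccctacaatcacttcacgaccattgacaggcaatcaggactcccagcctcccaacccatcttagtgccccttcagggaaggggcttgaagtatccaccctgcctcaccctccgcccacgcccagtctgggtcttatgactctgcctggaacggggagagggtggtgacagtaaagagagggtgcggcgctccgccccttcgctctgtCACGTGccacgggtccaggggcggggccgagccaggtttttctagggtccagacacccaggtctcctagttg
Ctss: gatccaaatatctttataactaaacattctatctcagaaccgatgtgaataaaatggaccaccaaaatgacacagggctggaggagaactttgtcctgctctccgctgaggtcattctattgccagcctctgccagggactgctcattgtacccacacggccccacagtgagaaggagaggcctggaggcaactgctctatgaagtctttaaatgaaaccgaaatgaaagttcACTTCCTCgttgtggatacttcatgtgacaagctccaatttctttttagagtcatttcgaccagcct
Cst3: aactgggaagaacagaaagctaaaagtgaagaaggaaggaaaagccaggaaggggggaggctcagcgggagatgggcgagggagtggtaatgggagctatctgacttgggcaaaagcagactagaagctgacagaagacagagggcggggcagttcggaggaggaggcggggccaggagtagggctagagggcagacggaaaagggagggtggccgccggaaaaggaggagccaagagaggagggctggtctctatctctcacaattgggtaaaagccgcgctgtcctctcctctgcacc
CACGTG, which reads the same on both strands, occurs in 6.42% of the 33469 rat windows in the table, GAGGAAGT on either strand in 2.42%, and the AP-1 letters TGAGTCA in 4.63%. The matches do not overlap. TGAGTCA was in none of the 9 windows, and the other 5 members held none of the 3 motifs. A match describes letters in this rat window and is not a measured site. The species of the time-course cells could not be told, and no link between a match and a level was tested.

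In microglia, Ctsb, Ctsl, Ctsz, Cst7 and Cstb were above intact at each of the 3 times after injury, Ctss and Cst3 were below it at each, and Ctsd and Ctsh were below it at day 1 and above it at day 3. Ctsd, the aspartic protease, stood at 7901 CPM in intact cord, 3997 at day 1, 18786 at day 3 and 16732 at day 7. It was lowest at day 1, 1.98-fold under intact (95% interval of the ratio 1.95 to 2.01), and 2.38-fold (2.35 to 2.41) and 2.12-fold (2.09 to 2.15) over intact at days 3 and 7. Ctsb, the cathepsin with both cutting and trimming activity, stood at 1844 CPM in intact cord, 3068 at day 1, 5684 at day 3 and 5181 at day 7. Unlike Ctsd it was above intact at each of the 3 times, 3.08-fold (3.00 to 3.17) at day 3.

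Ctsl, a broad endopeptidase, was highest early: 1071 CPM in intact cord, 2752 at day 1, 2637 at day 3 and 1467 at day 7. The day 1 level was 2.57-fold (2.48 to 2.67) that of intact and the day 7 level 1.37-fold (1.32 to 1.42). Ctss, which stays active at neutral pH and trims the invariant chain of MHC class II, ran the other way, at 9570 CPM in intact cord, 2745 at day 1, 4767 at day 3 and 7156 at day 7. Intact cord was highest for Ctss, with day 1 lower by 3.49-fold (3.43 to 3.54) and day 3 by 2.01-fold (1.98 to 2.04). Ctsz, a carboxypeptidase, moved least in fold among the members above 1000 CPM at all times: 1610.5 CPM in intact cord, 2231 at day 1, 2650 at day 3 and 2560.0 at day 7. Ctsh, an aminopeptidase, was low at day 1 alone, at 831.5 CPM in intact cord, 355 at day 1, 1102 at day 3 and 860 at day 7. Ctsk, the collagen-cutting cathepsin of osteoclasts, was near the limit of counting in microglia, with 2, 10, 17 and 29 UMIs in intact, day 1, day 3 and day 7, and was not compared there.

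Among the inhibitors, Cst3 took 8.06% of all microglial UMIs in intact cord. Its level was 80569 CPM in intact cord, 12630.5 at day 1, 13812 at day 3 and 24878 at day 7. Each injured library was below intact. The day 1 level was 6.38-fold lower (6.34 to 6.42), that of day 3 was 5.83-fold lower (5.80 to 5.865), and day 7 was 3.24-fold lower (3.22 to 3.26). Cst7 was the opposite, at 10.7 CPM (7.24 to 15.3) in intact cord and 67.8 (63.3 to 72.6) at day 1. Day 3 held 145 CPM (140 to 150) and day 7 held 451 (440 to 463). No 2 of these intervals overlap, and the day 7 level was 42.05-fold (29.4 to 62.4) that of intact, on 30 UMIs there. After each cell was thinned to 1000 UMIs, a Cst7 UMI was found in 0.884% of microglia in intact cord and in 6.02%, 13.1% and 26.9% at days 1, 3 and 7, beside 0.0888%, 0.0864%, 0.590% and 1.23% of endothelial cells, which should lack it. Cstb was higher at all 3 times, at 205 CPM in intact cord, 696 at day 1, 585 at day 3 and 610 at day 7.

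**Figure D1:**
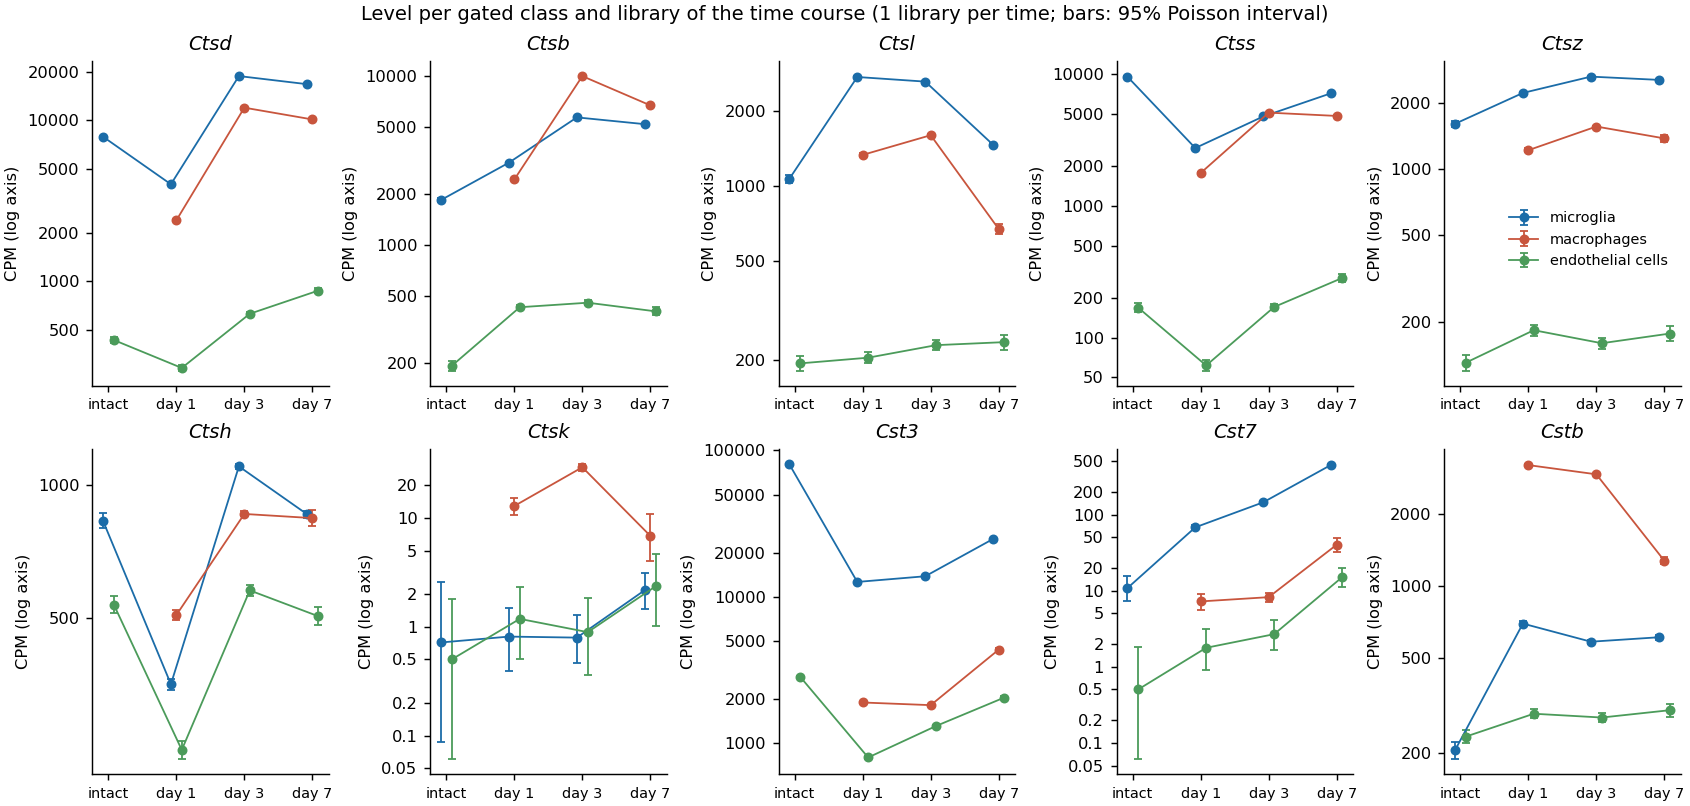
Level of each gene (CPM, log axis) in microglia, macrophages and endothelial cells of the 4 time-course libraries, 1 library per time, with 95% Poisson intervals; lines join the libraries of a class. Microglial Cst3 is highest in intact cord (80569 CPM) and Cst7 at day 7 (451 CPM), while Ctsd and Ctsb are highest at day 3.

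Of the 9 members with at least 50 UMIs over both libraries, 3 were at least 2-fold higher and 3 at least 2-fold lower in microglia at day 1 than in intact cord, beside 17.6% and 18.4% of all genes measured. At day 3 the members split 5 higher and 2 lower, beside 10% and 17.8% of all genes, and at day 7 they split 4 and 1, beside 6.21% and 20.8%. Cst7 was among the higher members each time, and it reached the 50 UMIs only through the injured library. From day 1 to day 3, 3 members were at least 2-fold higher (Ctsd, Ctsh and Cst7) and 0 lower, beside 9.71% and 15.1% of all genes. From day 3 to day 7, 1 was higher (Cst7, 3.11-fold, 2.98 to 3.25) and 0 lower, beside 1.94% and 4.15%. Their median log2 ratios were 0.47, 1.25 and 0.67, where all genes measured had medians of -0.04, -0.31 and -0.51. Scaling by TMM brings the last 3 to 0.11, 0.02 and 0.01, so levels relative to the median gene stand higher than those given here. Under TMM the day 3 ratio of Ctss is 1.59-fold lower, short of the 2-fold line, and at day 7 Ctss is no longer below intact (0.930-fold lower).

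The day 1 microglia were also the deepest cells of the time course, with a median of 12995.5 UMIs against 3272 in intact cord, and they held a median of 5 of the 8 microglial markers against 7. Gating after thinning every cell to 1000 UMIs kept 199 of them, and the day 1 differences stood at 5.99-fold lower for Cst3, 2.98-fold lower for Ctss, 9.76-fold higher for Cst7 and 2.18-fold higher for Ctsl.

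All phagocytes were also summed as 1 class, without the division into microglia and macrophages. The mix moved with time: microglia were 792 of 853 phagocytes in intact cord, 996 of 3631 at day 1, 2671 of 6430 at day 3 and 3221 of 4957 at day 7, and the part of this mix in the ratios below was not tested. Among the 10 members, 4 were at least 2-fold higher and 4 lower at day 1 (16% and 19.9% of all genes), 5 and 1 at day 3 (11% and 25.5%), and 5 and 1 at day 7 (6.55% and 25.1%). Ctsk and Cst7, at 0.986 and 10.5 CPM in intact cord, were among the higher members each time. Both had enough UMIs to be counted only through the injured library, so the higher counts rest in part on these scarce genes. Cst3 was among the lower genes at each time and the 1 lower gene at days 3 and 7, at 74555 CPM in intact cord, 8680 at day 1, 6555 at day 3 and 17540 at day 7. Cstb was higher at each, at 251 CPM in intact cord, 1666 at day 1, 1855 at day 3 and 814.5 at day 7. Its day 1 ratio was 6.65-fold, against 3.39-fold in microglia alone, and that of Cst3 was 8.59-fold lower against 6.38-fold. Ctsb (1.61, 4.30 and 3.24-fold at days 1, 3 and 7), Ctsl (2.41, 1.985 and 1.25-fold), Ctsz (1.195, 1.30 and 1.51-fold) and Cst7 (4.275, 6.02 and 33.9-fold) were above intact at each time. Ctss was 3.90, 1.835 and 1.42-fold lower. Ctsd was 2.20-fold lower at day 1 and 2.01 and 2.20-fold higher after it, and Ctsh 2.005-fold lower at day 1 and 1.17 and 1.04-fold higher after it. Ctsk rested on 3 UMIs in intact cord, and its ratio at day 3 was 16.0 with a counting interval of 5.45 to 77.6. From day 1 to day 3, 5 members were higher and 0 lower in phagocytes, beside 7% and 11.2% of all genes, and from day 3 to day 7, 2 were higher and 2 lower, beside 3.2% and 6.07%.

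**Figure D2:**
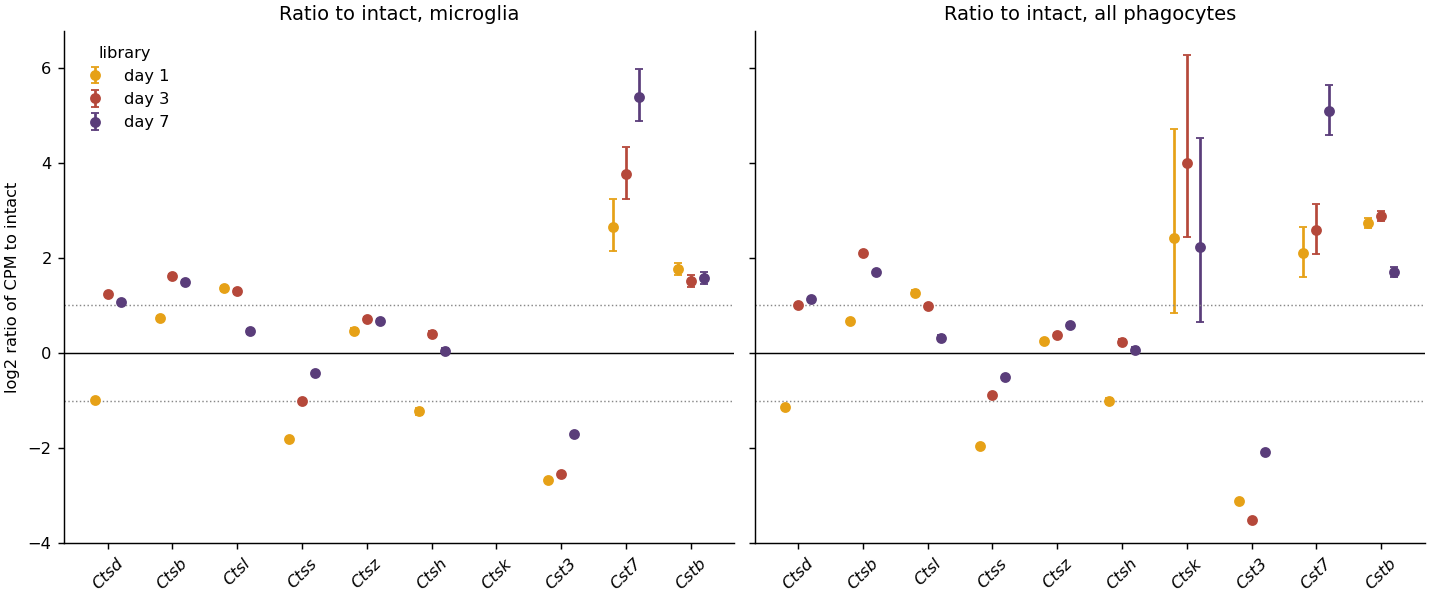
Log2 ratio of CPM to the intact library for microglia (left) and all phagocytes (right) at days 1, 3 and 7; bars are exact 95% binomial intervals for counting error, dotted lines mark 2-fold, and Ctsk is not shown for microglia. Cst3 lies below -1 at every time and Cst7 and Cstb above 1, while Ctsd is below 0 at day 1 and above 1 at days 3 and 7.

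Macrophages were followed from day 1, when the class first reached 50 cells. Ctsd stood at 2386 CPM at day 1, 11954 at day 3 and 10102 at day 7, and Ctsb at 2441, 9964 and 6692 CPM at the same times. Both were lowest at day 1, and day 3 was higher by 5.01-fold (4.94 to 5.08) for Ctsd and 4.08-fold (4.03 to 4.14) for Ctsb. Ctss stood at 1776 CPM at day 1, 5094 at day 3 and 4809 at day 7. Together with Ctsk these were the 4 members at least 2-fold higher at day 3 than at day 1, and 0 were lower, where 7.64% and 8.97% of all genes passed the line in each direction.

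Between days 3 and 7 the inhibitors parted. Cst3 stood at 1894 CPM at day 1, 1817 at day 3 and 4353 at day 7, so that day 7 was 2.40-fold (2.35 to 2.45) day 3. Cstb went from 3198 CPM at day 1 and 2926 at day 3 to 1274 at day 7, 2.30-fold lower (2.22 to 2.38). Cst7 was scarce, with levels of 7.20 CPM (5.60 to 9.11), 8.19 CPM (7.14 to 9.35) and 40.1 CPM (32.6 to 48.8) at days 1, 3 and 7. In all, 2 members were at least 2-fold higher and 3 lower at day 7 than at day 3, beside 4.6% and 5.57% of all genes. The other 2 that were lower were Ctsl (1338 CPM at day 1, 1606 at day 3, 673 at day 7) and Ctsk, at 12.8, 29.1 and 6.82 CPM. Day 7 held 17 UMIs of Ctsk in 486 macrophages, and with gates after thinning its day 7 level was above that of day 3. Other values moved by over 1.5 times as well. With Leiden clusters Ctsb was 2.78-fold lower at day 7 (1.49 with gates), Ctsd 2.67-fold (1.18) and Ctsl 4.31-fold (2.38), which makes 5 members lower, and with gates after thinning Cst7 was 11.5-fold higher (4.90). Ctsz (1220.0, 1566 and 1382 CPM at days 1, 3 and 7) and Ctsh (509, 861 and 842 CPM) stayed within 2-fold.

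Macrophages and microglia taken from the same library differed in their inhibitors. This comparison has replicates, the day 1, day 3 and day 7 libraries, and was tested with edgeR's quasi-likelihood test with the library as a block and Benjamini-Hochberg adjustment over 11482 genes. Of the 10 members, 2 were higher and 3 lower in macrophages at an adjusted p under 0.05, beside 7.21% and 7.31% of all genes. Cstb was higher by 2.01 on the log2 scale (SE 0.32, adjusted p = 0.00646), as 3 of 3 libraries showed: 3198 against 696 CPM at day 1, 2926 against 585 at day 3 and 1274 against 610 at day 7. Ctsk was higher by 3.84 (SE 0.68, adjusted p = 0.0104), with 3 of 3 libraries the same way and few UMIs in microglia.

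Cst3 was lower in macrophages by -2.58 on the log2 scale (SE 0.20, adjusted p = 0.000564), at 1894 against 12630.5 CPM at day 1, 1817 against 13812 at day 3 and 4353 against 24878 at day 7. Cst7 was lower by -3.49 (SE 0.27, adjusted p = 0.000528), at 7.20 against 67.8 CPM at day 1, 8.19 against 145 at day 3 and 40.1 against 451 at day 7. For both genes macrophages were lower in 3 of 3 libraries. Ctsl was lower by -0.81 (SE 0.20, adjusted p = 0.0369) in 3 of 3 libraries. The other cathepsins did not pass: Ctsz by -0.69 (SE 0.19, adjusted p = 0.0513) and Ctsd by -0.56 (SE 0.18, adjusted p = 0.0946) were lower in 3 of 3 libraries, while Ctsb (0.43, SE 0.25, adjusted p = 0.318), Ctss (-0.22, SE 0.22, adjusted p = 0.573) and Ctsh (0.19, SE 0.24, adjusted p = 0.672) had both signs among the libraries. Without the day 3 library 0 members were higher and 2 lower, and the calls of Cstb, Ctsk and Ctsl were lost. Without the day 7 library the call of Ctsl was lost.

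Of the 5 called genes, Cst3, Cstb and Ctsk had the same sign in the injected libraries, and Ctsl and Cst7 the opposite one. Cst3 stood at 6502 CPM in macrophages and 33576 in microglia with PBS, and at 5290 and 27834 with MPSS. Cstb was 1.78-fold (1.69 to 1.88) higher in macrophages with PBS and 1.93-fold (1.84 to 2.01) with MPSS, and Ctsk 17.9-fold (14.1 to 23.2) and 9.44-fold (7.90 to 11.4) higher. Ctsl was 3.00-fold (2.79 to 3.22) higher in macrophages with PBS and 2.06-fold (1.96 to 2.17) with MPSS, the reverse of the time course. Cst7 had 0 UMIs in injected microglia, which allows up to 2.285 CPM with PBS and 1.38 with MPSS (3 counts per library), against 11.0 CPM (30 UMIs) and 3.73 CPM (14 UMIs) in macrophages. Set against those 3 counts, macrophages were 4.803-fold higher with PBS and 2.71-fold higher with MPSS. The counting intervals of these ratios reached down to 3.671-fold with PBS and 1.927-fold with MPSS. The 2 sets differ in gene annotation, time and treatment, and these cannot be told apart.

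**Figure D3:**
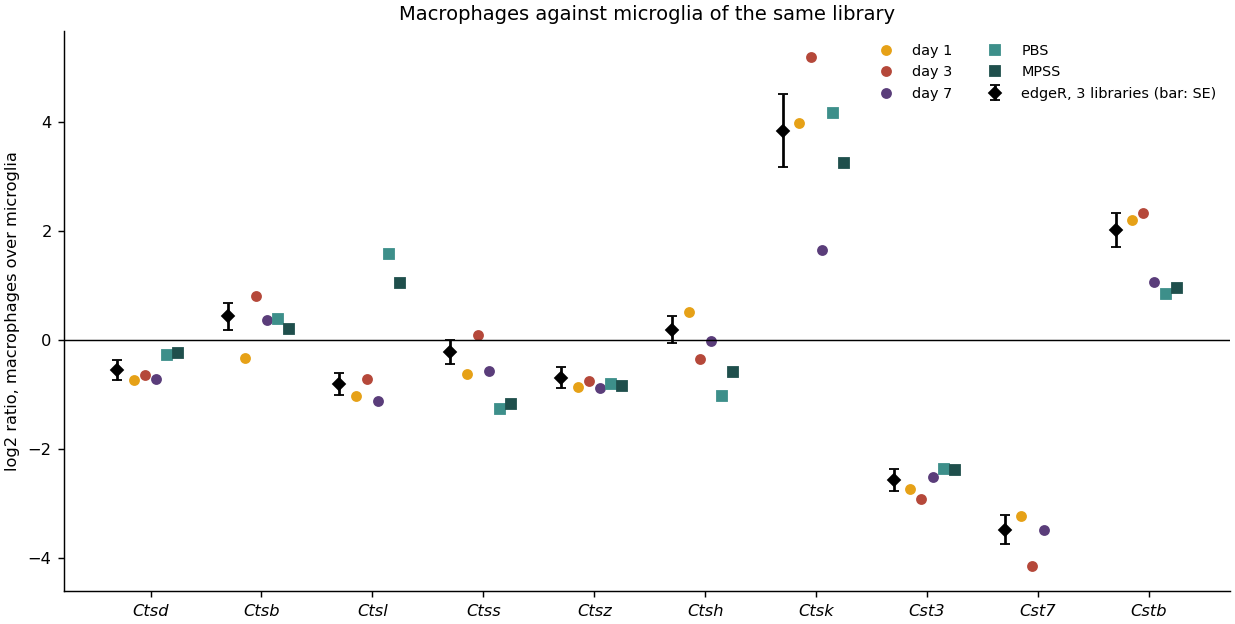
Log2 ratio of macrophages over microglia in each library (circles, time course; squares, injected set) beside the edgeR estimate over the 3 time-course libraries (diamonds, bars are SE). Cst3 and Cst7 lie below -2 and Cstb above 0 in each library drawn, Ctsl lies below 0 in the time course and above 0 in the injected set, and Cst7 is not drawn for the injected set, where microglia held 0 UMIs.

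Within macrophages the members differed between cells with and without a UMI of Gpnmb, a glycoprotein of lipid-laden macrophages, counted after thinning to 1000 UMIs. At day 3 the 1878 cells with Gpnmb held 11613 CPM of Ctsb against 5893 in the 1012 without, 1.97-fold (1.95 to 1.99), and 14063 against 6748 CPM of Ctsd, 2.08-fold (2.07 to 2.10). The same cells held less Cst3, at 1708 against 2086 CPM. At day 1 the ratios were 2.31 (2.22 to 2.40) for Ctsb and 2.10 (2.01 to 2.19) for Ctsd, and at day 7 they were 2.48 (2.39 to 2.58) and 2.91 (2.81 to 3.01), so each library gave the same direction. Ctsk was 6.68-fold (4.36 to 10.0) and 3.40-fold (2.70 to 4.32) higher in the cells with Gpnmb at days 1 and 3. Cells with Gpnmb were also deeper, with medians of 8751.5 against 6246 UMIs at day 3, and the part of depth in these ratios was not tested. Ctss (1.24, 1.79 and 1.81-fold at days 1, 3 and 7), Ctsl (1.47, 1.63 and 2.17-fold), Ctsz (1.22, 1.28 and 1.395-fold) and Cstb (2.16, 1.19 and 1.37-fold) were also higher in cells with Gpnmb at each time. Ctsh stood at 0.904, 1.15 and 1.20-fold. Cst7 was lower at day 3, at 6.04 against 13.5 CPM, and at day 7 its ratio of 0.888 had an interval of 0.584 to 1.37.

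Macrophages were also compared by a UMI of Arg1, arginase of wound macrophages. At day 1 the 1409 macrophages with Arg1 held 1475 CPM of Cst3 against 3437 in the 366 without, a ratio of 0.429 (0.416 to 0.442), and 3502.5 against 2077.5 CPM of Cstb, a ratio of 1.69 (1.63 to 1.74). Cst7 stood at 3.58 against 20.5 CPM, a ratio of 0.175 (0.104 to 0.290). Ctsk, at 15.0 against 4.88 CPM, had a ratio of 3.07 (1.61 to 6.58), and Ctsd one of 1.61 (1.55 to 1.67). Day 3 gave smaller differences in the same directions for 4 of these, 0.756 for Cst3, 0.629 for Cst7, 1.24 for Cstb and 1.44 for Ctsk, while Ctsd was at 0.999. Ctsl was higher in cells with Arg1, by 1.45-fold (1.39 to 1.52) at day 1 and 1.78-fold (1.75 to 1.82) at day 3, and Ctss stood at 1.01 and 0.831. Ctsb (1.20 and 1.09), Ctsz (0.972 and 1.05) and Ctsh (1.12 and 1.01) lay closer to equal.

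The UMIs of all 7 cathepsins were summed against those of the 3 cystatins. Cystatins leave Ctsd untouched, and it made up 26.4% to 52.7% of the cathepsin UMIs of microglia, so the sum is also given without it and is not a balance of proteases and their inhibitors. Microglia held 0.283 cathepsin UMIs per cystatin UMI in intact cord (0.280 to 0.285). The injured libraries held 1.13 (1.12 to 1.14), 2.45 (2.44 to 2.46) and 1.31 (1.30 to 1.315) in the order of days 1, 3 and 7. Macrophages held 1.90 (1.88 to 1.92), 6.54 (6.50 to 6.58) and 4.32 (4.25 to 4.40) at days 1, 3 and 7, above the microglia of the same library each time. Without Ctsd, microglia held 0.185 cysteine cathepsin UMIs per cystatin UMI in intact cord, then 0.833, 1.16 and 0.664 at days 1, 3 and 7, and macrophages held 1.43, 4.02 and 2.54. The order of days 1 and 7 in microglia thus turns on Ctsd, while intact cord stayed lowest and day 3 highest. Cst3 made up 99.7% of the cystatin UMIs of intact microglia but 37.15% of those of day 1 macrophages, where Cstb was the larger part. Genes can be captured at different rates, so the ratio compares libraries and classes and not amounts of protein.

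For most members the phagocyte levels stood far above those of endothelial cells, the class used to judge free RNA. Over the 4 time-course libraries all 10 members were higher in phagocytes in edgeR's quasi-likelihood test with library as a block, beside 31.2% higher and 26.8% lower among 11534 genes. Ctss differed most, by 5.65 on the log2 scale (SE 0.25, adjusted p = 4.22e-06), and Ctsh least, by 1.26 (SE 0.17, adjusted p = 0.000624), each in 4 of 4 libraries. Cstb was close to equal in intact cord, at 251 against 235 CPM, 1.07-fold (0.969 to 1.18). Ctsk had intervals that include equal levels in intact cord (0.226 to 23.6) and at day 7 (0.962 to 4.67). In every other member and library the interval lay above equal. A reference for free RNA was taken as a member's phagocyte level times the share of C1qa, C1qb and C1qc found in the class. These 3 genes are also markers of the phagocyte gate, so the gating itself favours cells without them in the other classes. This can lower the reference and raise the ratios to it, by an amount that was not tested. Endothelial Ctss, at 169, 61.6, 171 and 284 CPM from intact to day 7, was 1.01, 1.20, 1.26 and 1.30 times that reference. Endothelial Ctsh stood further from it: 537.5 CPM in intact cord, 252.5 at day 1, 578.5 at day 3 and 506 at day 7 were 17.4 to 35.8 times the reference. Other sources of these UMIs, such as doublets, were not tested. Day 1 was lowest for Ctsh in endothelial cells, as it was in microglia.

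**Figure D4:**
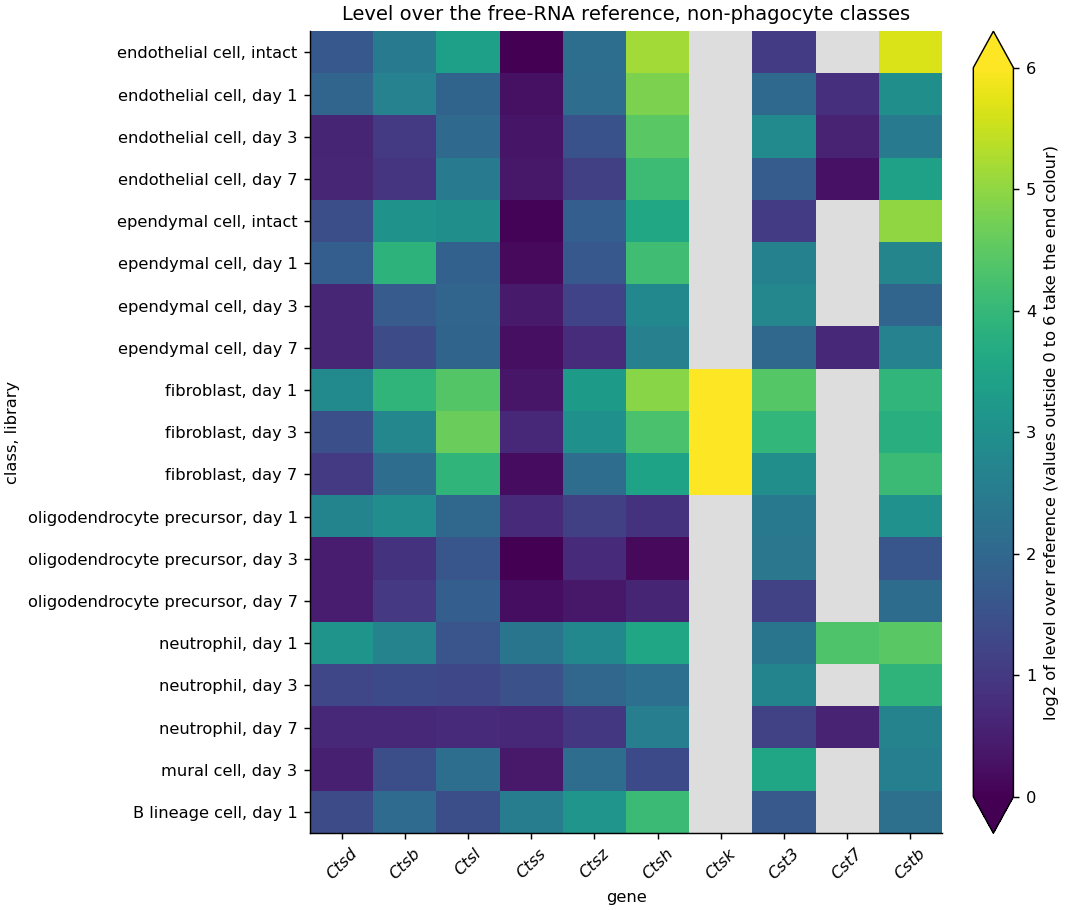
Log2 of the CPM of each gene over its free-RNA reference in non-phagocyte classes with at least 50 cells in a time-course library; grey cells had under 10 UMIs. Ctss is close to 0 in endothelial, ependymal and fibroblast rows, Ctsh stays high in endothelial rows, and Ctsk reaches the end colour in fibroblasts.

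Fibroblasts held Ctsk far above the free-RNA reference. The level was 124, 147 and 236 CPM at days 1, 3 and 7 against 12.8, 29.1 and 6.82 in macrophages, and 14.4%, 11.9% and 15.8% of thinned fibroblasts had a Ctsk UMI against 0.0864%, 0 and 0.351% of endothelial cells. Fibroblast Ctsl, at 772.5, 855 and 601 CPM, lay 15.2 to 24.7 times above the reference. Ependymal cells, which line the central canal, held Ctsb at 280 CPM in intact cord, 987 at day 1, 990 at day 3 and 679 at day 7, all above the free-RNA reference by 2.61 to 14.7 times. Their day 1 level was 3.53-fold (3.21 to 3.89) that of intact. Of 8 members with enough UMIs in ependymal cells, 1, 3 and 2 were at least 2-fold higher and 2, 0 and 0 lower at days 1, 3 and 7, beside 11%, 6.73% and 3.78% of all genes higher and 12.6%, 4.94% and 4.04% lower. Endothelial Ctsb, at 193 CPM in intact cord, 429 at day 1, 456 at day 3 and 405 at day 7, was likewise lowest in intact cord. In endothelial cells 1, 1 and 3 members were higher and 3, 1 and 0 lower, of 8, 8 and 9 with enough UMIs, beside 11.8%, 5.95% and 3.25% of all genes higher and 9.82%, 5.51% and 3.34% lower. Endothelial Cst7, at 0.500 CPM in intact cord and 15.0 at day 7, is counted as higher at day 7 and had enough UMIs only through that library. Ctss, close to the reference in both classes, is among the members counted as lower at day 1, and the part of free RNA in these counts was not tested. Cst3 is among them too, so its lower level at day 1 was not limited to microglia. In endothelial cells it stood at 2840 CPM in intact cord and 797 at day 1. In ependymal cells it took 0.268% of UMIs in intact cord and 0.119% at day 1. Neutrophils held Cstb at 1039, 1284 and 187.5 CPM at days 1, 3 and 7, from 6.41 to 22.2 times above the reference. The level of each member in the other classes is drawn in the map of levels over the free-RNA reference.

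In the injected cords Ctss was lower with MPSS than with PBS in every phagocyte class. In microglia it stood at 963 CPM (910 to 1018) with PBS and 469 (440 to 498) with MPSS, a 2.05-fold (1.89 to 2.23) lower level, and it was the member, 1 of 9, past 2-fold in either direction. Among all genes 1.46% were at least 2-fold higher and 0.899% lower. In macrophages it stood at 399 CPM (376 to 424) with PBS and 208 (194 to 223) with MPSS, 1.92-fold (1.75 to 2.11) lower, and in undivided phagocytes at 652 and 342 CPM. The intervals do not overlap in these classes. In macrophages 0 of 9 members passed 2-fold, beside 0.843% higher and 1.18% lower of all genes. No member passed 2-fold in all phagocytes (0 of 10, beside 0.582% higher and 0.854% lower of all genes), undivided phagocytes (0 of 9, 0.685% and 0.877%), fibroblasts (0 of 8, 0.903% and 1.25%) or oligodendrocytes (0 of 8, 0.774% and 0.801%).

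Ctsk in macrophages stood at 929 CPM (893 to 965.5) with PBS and 558.5 (535 to 583) with MPSS, 1.66-fold (1.57 to 1.76) lower, and at 1.20-fold lower with Leiden clusters in place of gates. In microglia Ctsk stood at 51.8 CPM (40.2 to 65.7) with PBS and 59.2 (49.4 to 70.3) with MPSS, with overlapping intervals, and the difference between the classes was not tested. Cst3 was lower with MPSS by 1.21-fold (1.19 to 1.22) in microglia and 1.23-fold (1.20 to 1.25) in macrophages, the latter with the opposite direction under Leiden clusters (0.966-fold lower). Ctsl was 1.35-fold (1.24 to 1.46) higher in microglia and 1.08-fold (1.04 to 1.12) lower in macrophages, again with the opposite direction under Leiden clusters (0.8225-fold lower). Ctsh was 1.19-fold lower (1.12 to 1.27) in microglia and 1.14-fold higher (1.07 to 1.21) in macrophages. Ctsd, Ctsb, Ctsz and Cstb were within 1.07-fold in both classes. These are differences between 2 libraries, and how much any of them exceeds the spread between animals was not measured.

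**Figure D5:**
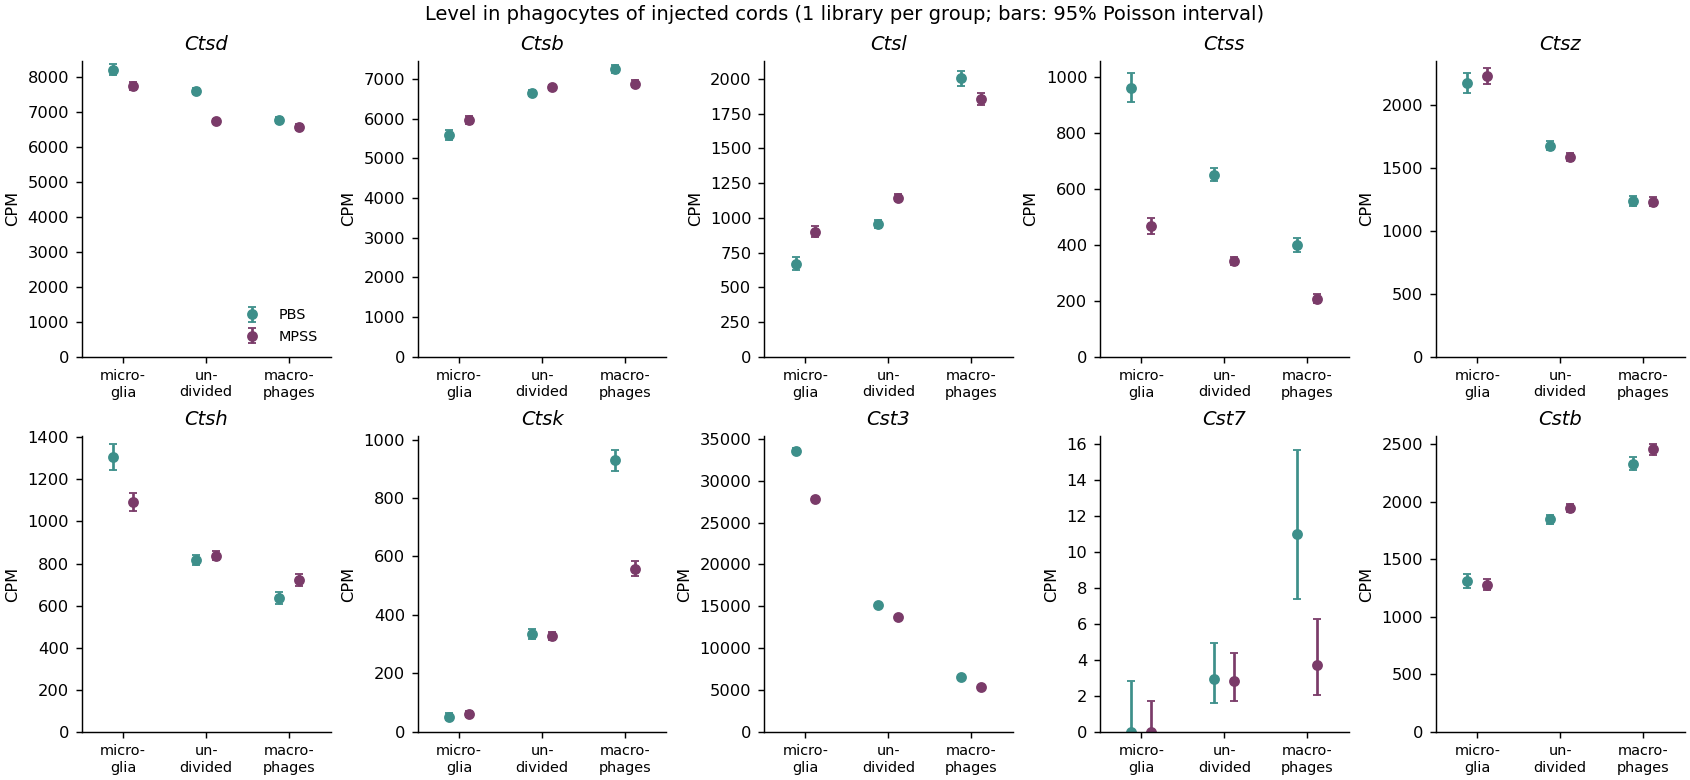
CPM of each gene in microglia, undivided phagocytes and macrophages of the PBS and MPSS libraries, 1 library each, with 95% Poisson intervals. Ctss is lower with MPSS in the 3 classes (963 against 469 CPM in microglia), Ctsk in macrophages, and the panels of Ctsd, Ctsb, Ctsz and Cstb show close pairs.

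Other genes of the pathway were read from lists chosen with earlier results of these data known. Among 12 genes for activation, sorting and secretion, 2 were at least 2-fold higher and 2 lower in microglia at day 1 than in intact cord, 3 and 0 at day 3, and 3 and 0 at day 7. All genes gave 17.6% higher and 18.4% lower at day 1, 10% and 17.8% at day 3, and 6.21% and 20.8% at day 7, against which these and the next counts are to be read; at day 1 the counts lie near those shares. The lower pair at day 1 was Psap, the precursor of saposins, at 746 against 2137.5 CPM, and Scarb2, a lysosomal membrane protein, at 52.4 against 105.6. Grn, the precursor of granulins, was chosen after its values were seen, and stood at 1117 CPM in intact cord, 856.5 at day 1, 2408 at day 3 and 2402 at day 7. Like Ctsd it was lowest at day 1 and above intact at days 3 and 7. Among the 5, 6 and 6 other cathepsins with enough UMIs, 0, 1 and 1 were higher and 2, 2 and 1 lower at days 1, 3 and 7, with Ctsf at 167 CPM in intact cord against 21.6 at day 1. Of 4, 4 and 3 transcription factors of lysosomal genes measured, 1, 1 and 0 were higher and 2, 1 and 2 lower. Tfeb stood at 39.4 CPM in intact cord and at 14.35, 17.3 and 16.15 at days 1, 3 and 7. Of 8, 7 and 6 other protease inhibitors measured, 3, 3 and 2 were higher and 3, 2 and 2 lower, and Timp2, which blocks metalloproteinases, was 16.5-fold (14.6 to 18.7) higher at day 7. None of the 15 other cystatins and stefins in the time-course tables reached 50 UMIs in microglia or macrophages. Of the 11 in the injected tables, 1 reached it in macrophages and 1 in all phagocytes. It was lower with MPSS than with PBS, at log2 ratios of -5.04 and -6.70, beside 1.18% and 0.854% of all genes at least 2-fold lower. The gene reached the 50 UMIs only through the PBS library and was near the limit of counting with MPSS. The size of these ratios is therefore not a measured fold. Macrophages are part of the phagocyte sum, so the 2 ratios are not separate observations. Each side is 1 library, and the difference between MPSS and PBS was not tested.

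In macrophages 5 of 12 activation, sorting and secretion genes were at least 2-fold higher at day 3 than at day 1, and 0 lower, beside 7.64% and 8.97% of all genes. Sort1, a sorting receptor, stood at 4.07 CPM at day 1 and 13.2 at day 3, and Glb1, a lysosomal galactosidase, at 15.4 and 48.0. Ctsc, the activator of leukocyte serine proteases, was lower at day 3, at 414 against 1184 CPM. In the test of macrophages against microglia 3 of these 12 genes were higher and 1 lower, beside 7.21% and 7.31% of all genes. Igf2r, a mannose-6-phosphate receptor, was higher by 1.765 (SE 0.27, edgeR adjusted p = 0.00568), and Psap higher by 1.56 (SE 0.23, edgeR adjusted p = 0.00478). Sort1 was lower by -1.27 (SE 0.29, edgeR adjusted p = 0.0293). Of the other cathepsins Ctsf was lower by -3.77 (SE 0.46, edgeR adjusted p = 0.00249), and Napsa, an aspartic protease, higher by 5.13 (SE 0.25, edgeR adjusted p = 0.000295).

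Across the 29 class and library sums of the time course, the gene most like each member was found by Pearson's correlation of log2(CPM + 10) among 7342 genes. These are descriptions over sums that share libraries. Ctsd was most like Trem2 (r = 0.977), Ctss like Aif1 (0.969), Ctsz like Lgmn (0.958), Ctsb like Cebpa (0.942) and Cst3 like Hps4 (0.933), followed by Gpr34 and Cx3cr1. Gpr34 and Cx3cr1 are markers of the microglia gate, so their high levels in microglia sums follow from the gating. Cstb was most like Plin2, a lipid droplet coat gene (0.956), Cst7 like Tnf (0.828) and Ctsk like Igf2 (0.934). Ctsl was most like Rab3il1 (0.938) and Ctsh like Necap2 (0.856). Within the members, Ctsd and Ctss ran closest (0.949), and Ctsk was close to none of the other cathepsins (-0.148 with Ctss to 0.283 with Ctsl).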

How the data were processed

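Single-cell RNA was measured in 6 droplet libraries, and the files deposited by the authors hold UMI counts per gene and cell, not normalized. Cell Ranger 3.0.2 is named per the submitters' processing notes, and version 3.1.0 stands in the matrix headers of the injected set. The genome build and annotation are not given in the sources used here. The time-course and injected tables use different gene annotations, so levels were never compared between the sets. The 77 gene names found in the intact and day 1 tables alone were left out.

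Kept cells had 200 or more genes, 500 or more UMIs and no more than 20% of UMIs from mitochondrial genes (Python 3.11.15, scanpy 1.11.5). A cell took the class, of 14 lineages with 8 markers each, for which it held at least 3 markers and a lead of 2. Phagocytes were then divided into microglia, macrophages and undivided cells in the same way. Scrublet called 0 to 0.557% of cells, which is too few to have worked, so doublets were not removed. UMIs were summed per class and library, for at least 50 cells, into CPM with exact Poisson intervals, and ratios of sums with at least 50 UMIs have exact binomial intervals; both cover counting error only. Differences of 2-fold or more between times or treatments were counted, with no test. Classes within libraries were compared with edgeR 4.0.16 (R 4.3.3), quasi-likelihood test, TMM scaling, library as a block and Benjamini-Hochberg adjustment. The same fit was also run on simulated data, and its outcome is not given here. How far the p-values reach beyond the spread between these libraries is unknown, since each library is 1 time point.

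The members and lists were chosen with earlier results of these data known. All members were counted in every comparison where they had enough UMIs, and from each other list up to 2 genes with the largest ratio each way. For likeness the genes with the highest correlation were named. Alternatives changed the gates, the cells kept, the scaling, the minimum count, the tool (DESeq2 1.42.0) and the libraries.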

Additional observations from a re-analysis of the deposited data

How the results depend on the processing

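Each group is 1 library, so the spread between animals is not measured and counting intervals understate it. Depth limits Ctsk and Cst7, which rest on few UMIs in several classes. No paired analysis was possible because each group holds 1 library, all labelled replicate 1, so the numbers pair nothing across groups; classes of the same library were compared with the library as a block. Of the counts of members and their alternatives, 317 values stayed within 1.5 times of the reported count and 15 did not. Of the values of single genes, 1140 stayed within their spread or call, 432 moved, 7 gained and 7 lost a call, and 3 reversed.

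In microglia at day 3 against intact cord, the count of members at least 2-fold lower was 1 in place of 2 with a lead of 3 markers, with gates after thinning, with TMM scaling, with a total without mitochondrial, ribosomal protein and haemoglobin genes, with a mean over cells, and without cells over the 95th percentile of UMIs, an alternative chosen after seeing the data. Ctss, at 2.01-fold lower, is the gene at the line. In phagocytes at day 1 the lower count was 2 with TMM scaling, in place of 4. In macrophages at day 7 against day 3 it was 5 with Leiden clusters, in place of 3 (Ctsb and Ctsd were added), and the Ctsk log2 ratio turned to 0.94 with gates after thinning. With MPSS against PBS, the lower count in microglia was 0 with a lead of 1 marker, in place of 1, and in macrophages 1 with Leiden clusters and 1 with a minimum of 10 UMIs, in place of 0.

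For macrophages against microglia, leaving out each library in turn gave 0 to 2 members higher and 2 to 3 lower, with 0 higher without the day 3 library. Without the library as a block the lower count was 1, and it was 5 with Leiden clusters and 5 without cells over the 95th percentile of UMIs. The log2 difference of Ctsh ranged from -0.081 to 0.43 with a library left out, turning negative without the day 1 library, and was -0.0077 with a lead of 1 marker. In each case the cause was not tested. MPSS against PBS was not run in microglia with Leiden clusters or gates after thinning, nor in macrophages with gates after thinning, as under 50 cells were left in a library.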
